A study of Mus musculus with 36 samples.

Results

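The 10 genes *Xdh*, *Txnip*, *H6pd*, *Slc43a1*, *St6galnac5*, *Scn7a*, *Ifngr1*, *Clec2d*, *Dapk1* and *Coro1b* were examined in epididymal white adipose tissue (eWAT) of mice with and without ligature-induced periodontitis (LIP). They were selected on the measured change itself, a higher level with ligature averaged over 6 pairs of genotype and diet, out of 24750 genes in the table, and all 10 symbols were found in it. Of 17852 genes that reached 1 CPM (reads scaled to library size by the authors) in at least 3 libraries, the members held 10 of the first 12 places when genes with a higher level were ordered by the averaged ligature change relative to its error. *Lamb1* (log2 change 0.68) and *Tgfbr3* (0.50) were the other genes among these 12, *H6pd* (0.39) was the member in the last place, and *Osbpl11* (0.45) came next after it. Because the averaged change chose the members, it is given below as a description without a test.

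The 36 libraries came from eWAT of as many male mice of C57BL/6 strain, with 3 mice in each of 12 groups. The groups were WT or CCL19-KI mice fed a normal diet (ND), a 40% HFD or a 60% HFD for 10 weeks, and in each case with or without LIP, in which a thread is tied around a molar so that the gingiva becomes inflamed and alveolar bone is lost. Ligatures were placed at 14 weeks of age, after 8 weeks on the diet, and were kept for 2 weeks, so that every mouse was of the same age at collection. CCL19-KI mice carry an added *Ccl19* sequence in the *Adipoq* locus, which adipocytes transcribe, in ligatured and unligatured mice alike, and their own *Adipoq* was kept. The knock-in line was kept by mating homozygous mice and the WT mice were bred separately, so genotype and breeding line cannot be told apart. The text on the design of the series describes LIP for every group, but the sample labels give it for 18 mice, and the labels were followed.

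The members belong to several processes. Xdh oxidizes hypoxanthine and xanthine to uric acid in purine breakdown, and in the mouse Uox then breaks down uric acid. Txnip is an alpha-arrestin that binds thioredoxin and lowers glucose uptake, and its transcription follows glucose. H6pd works in the lumen of the endoplasmic reticulum, where it makes NADPH, which the enzyme that regenerates active glucocorticoid uses in adipocytes. Slc43a1 carries large neutral amino acids, St6galnac5 adds sialic acid to gangliosides, and Scn7a is a sodium channel relative that responds to extracellular sodium. Ifngr1 is the ligand-binding chain of the interferon gamma receptor, and Clec2d is a lectin-like ligand of an inhibitory receptor on natural killer cells. Dapk1 is a calmodulin-regulated kinase of cell death and autophagy, and Coro1b is a coronin that acts on branched actin filaments. White adipose tissue holds adipocytes beside macrophages, progenitors, endothelial cells and other cells, and in bulk RNA a gene at a lower level because fewer cells of a type are present and one with less RNA per cell cannot be told apart.

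Promoters are shown because members that move together invite a look at the sequence before their start sites. RefSeq (GRCm38.p6) gave a promoter for 7 of the 10 members, and *Xdh*, *Coro1b* and *St6galnac5* had no entry. The 250 bases before each start site were searched on both strands for CACGTG (E-box), TTATGTAA and TTATGCAA (D-box), the glucocorticoid response element with 3 free bases, TTCNNNGAA (GAS), CCAAT and TATAAA. The 5 promoters that held a match are printed 5′ to 3′ with the match in capitals. Bases that GENCODE M21 assigns to an exon of the same gene were left out, which cut the stretch of *Slc43a1* to 126 bases.
Txnip promoter, chr3:96557707-96557956, plus strand: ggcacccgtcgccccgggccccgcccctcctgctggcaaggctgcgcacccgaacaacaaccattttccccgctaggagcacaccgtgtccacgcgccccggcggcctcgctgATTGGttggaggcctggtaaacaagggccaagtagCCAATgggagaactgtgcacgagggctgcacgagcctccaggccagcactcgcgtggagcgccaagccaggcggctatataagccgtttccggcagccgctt
Ifngr1 promoter, chr10:19591699-19591948, plus strand: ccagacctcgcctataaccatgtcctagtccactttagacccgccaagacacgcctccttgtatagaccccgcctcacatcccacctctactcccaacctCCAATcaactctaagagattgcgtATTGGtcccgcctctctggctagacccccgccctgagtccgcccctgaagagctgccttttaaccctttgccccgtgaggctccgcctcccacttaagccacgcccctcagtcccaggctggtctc
Clec2d promoter, chr6:129180365-129180614, plus strand: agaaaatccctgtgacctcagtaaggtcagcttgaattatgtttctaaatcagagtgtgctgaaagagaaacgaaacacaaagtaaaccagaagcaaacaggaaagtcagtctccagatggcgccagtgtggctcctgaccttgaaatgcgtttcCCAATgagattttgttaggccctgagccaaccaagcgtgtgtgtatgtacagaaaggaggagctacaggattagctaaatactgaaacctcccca
H6pd promoter, chr4:150003237-150003486, minus strand: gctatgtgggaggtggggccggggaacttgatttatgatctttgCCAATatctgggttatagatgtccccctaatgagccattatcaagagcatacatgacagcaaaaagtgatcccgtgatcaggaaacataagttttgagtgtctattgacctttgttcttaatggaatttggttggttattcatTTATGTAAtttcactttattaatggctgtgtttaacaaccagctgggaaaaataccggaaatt
Slc43a1 promoter, chr2:84840073-84840198, plus strand: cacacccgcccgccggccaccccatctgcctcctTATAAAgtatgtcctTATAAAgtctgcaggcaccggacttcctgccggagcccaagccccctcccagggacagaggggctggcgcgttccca

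CCAAT, the site of the nuclear factor Y complex, was present in 5 of the 7 promoters, those of *Txnip*, *Clec2d*, *Ifngr1*, *H6pd* and *Slc43a1*, and in 33.8% of all 32851 promoters of this length. *Txnip* and *Ifngr1* held it on each strand. The D-box TTATGTAA, a site of clock-controlled PAR bZIP factors, stood 63 bases before the start of *H6pd* and was present in 0.819% of all promoters. *Slc43a1* held TATAAA at 216 and 201 bases before its start (12.4% of all promoters) and CACGTG at 64 bases (6.02%), and its CACGTG and CCAAT lie in the stretch that was not printed. TTATGCAA (0.694% of all promoters), GAS (7.02%) and the glucocorticoid response element (0.167%) had no match in these windows of the members. The start of *H6pd* used by RefSeq lies inside the GENCODE gene, and its window overlaps no exon of it. The windows of *Slc43a1* and *Dapk1* also lie inside their GENCODE genes, with 124 and 150 of the 250 bases in exons. The CACGTG and CCAAT of *Slc43a1* are among these exon bases.

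Depth was 11962228 to 21581595 reads per library (median 15573273), with a median of 14457618.5 reads in ligatured and 16405797 in unligatured mice. Libraries of the same group differed by more than counting noise in all 36 pairs of replicates, so none was counted as a repeat. In 2 libraries, both without ligature, *Ccl19* went against the label. The library labelled WT ND replicate 2 had 19.2 CPM of *Ccl19*, against 0.507 to 4.51 CPM in the other 17 WT libraries. The library labelled CCL19-KI 60% HFD replicate 3 had 0.687 CPM, against 5.57 to 34.6 CPM in the other 17 CCL19-KI libraries. Gm2564 and *Hist1h4m*, which separated the other libraries by genotype, also went against both labels. They were at 41.9 and 24.4 CPM in WT ND replicate 2, against at most 0.160 and 0.568 CPM in the other WT libraries. Both were at 0 CPM in CCL19-KI 60% HFD replicate 3, against at least 11.6 and 6.97 CPM in the other CCL19-KI libraries. No library was relabelled, and estimates without these 2 libraries are given beside the ligature changes, the tested differences named below and the correlations. *Adipoq*, which marks adipocytes, was at 300.1 to 3937 CPM over all libraries, so the defining gene of the labelled tissue was present in each. Its level differed between genotypes as labelled, with a median of 2323 CPM in WT and 616 CPM in CCL19-KI libraries (n = 18 each).

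Levels of the members spanned a wide range. Per kilobase of exon, the median over 36 libraries was 386 CPM for *Txnip*, 116 for *Clec2d*, 89.9 for *H6pd*, 51.5 for *Coro1b* and 43.5 for *Ifngr1*. It was 35.0 for *Scn7a*, 33.0 for *Xdh*, 10.9 for *Dapk1*, 3.34 for *Slc43a1* and 1.17 for *St6galnac5*. All 10 passed the filter on low values, 9 of them at 1 CPM or more in each of the 36 libraries and *St6galnac5* in 35. *St6galnac5* thus rested on the fewest reads, 18 to 388 per library, against 9619 to 41879 for *Txnip*.

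The mean of every member was higher with ligature in each of the 6 pairs. In the averaged ligature contrast, 0.286% of all genes tested were called higher and 0.325% in either direction (limma, adjusted p below 0.05); the members are among the former by the way they were picked. Which pairs carried the higher level is described next, with the SE of each change taken from the spread pooled over the 12 groups. Among WT mice on the ND, all 3 ligatured mice lay above all 3 unligatured mice for 9 of 10 members, where 14.2% of all genes tested did, and among CCL19-KI mice on a 60% HFD for 9 of 10 (all genes 12.4%). The count was 6 of 10 for CCL19-KI mice on a 40% HFD (all genes 4.77%), 5 for WT mice on a 40% HFD (7.88%), 5 for WT mice on a 60% HFD (4.68%) and 4 for CCL19-KI mice on the ND (11.1%). The averaged contrast that picked the members is made of these same mice, so nothing is read from these shares. The median log2 change over the 10 members was 0.71 for WT and 0.44 for CCL19-KI mice on the ND, 0.56 and 0.51 under a 40% HFD, and 0.33 and 0.57 under a 60% HFD, while the median over all genes lay between -0.05 and 0.03. Without the 2 libraries named above, all ligatured mice were higher for 10 members among WT mice on the ND and for 9 among CCL19-KI mice on a 60% HFD, with median changes of 0.68 and 0.44, and 1 member of the latter pair, *Slc43a1*, then had a mean below that of the unligatured mice.

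**Figure D1:**
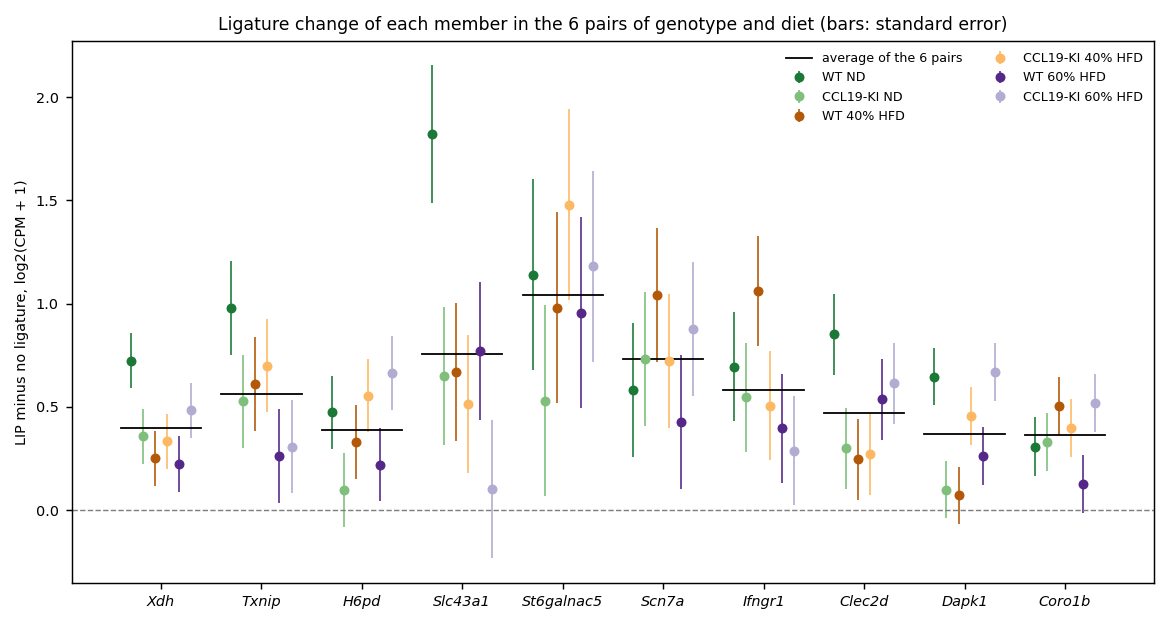
Ligature change of the 10 members (horizontal axis) in each of 6 pairs of genotype and diet, as the difference of group means of log2(CPM + 1) on the vertical axis, with bars for the standard error (n = 3 against 3) and a black line for the average of the 6 pairs. All 60 points lie above 0, from 0.07 for *Dapk1* among WT mice on a 40% HFD to 1.82 for *Slc43a1* in WT mice fed an ND.

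*Xdh* (ENSMUSG00000024066; GRCm38, chromosome 17, 73883895 to 73950196, minus strand) was the member with the largest change relative to its error and the member in which the ligatured mice lay above the unligatured mice in 6 of 6 pairs. *Xdh* levels were 176 to 318 CPM (median 279) in the 18 mice without ligature and 283 to 518 CPM (median 345) in the 18 ligatured mice, and the averaged log2 change was 0.40 ± 0.05 (SE), a ratio of 1.32 (0.35 on the log2 scale without the 2 libraries whose *Ccl19* went against their labels). *Xdh* measured 318, 255 and 315 CPM in unligatured WT mice on the ND and 518, 489.8 and 458 CPM in ligatured ones. The ligatured mice of this group were the 3 highest of all 36. Values of *Xdh* among CCL19-KI mice on the ND were 243, 291 and 300.4 CPM without ligature against 344, 351 and 370.5 CPM with it. With ligature, WT mice on a 40% HFD reached 300.1, 319.6 and 392 CPM of *Xdh*, and without it 299, 268 and 278 CPM. Ligatured CCL19-KI mice on a 40% HFD held 379, 371 and 329.8 CPM of *Xdh* and their unligatured counterparts 302, 296 and 258 CPM. In these 3 pairs the groups did not overlap, although among WT mice on a 40% HFD the lowest ligatured mouse stood close to the highest unligatured one. *Xdh* stood at 249, 282 and 280.3 CPM without ligature and at 318, 309 and 319.7 CPM with it in WT mice on a 60% HFD. *Xdh* measured 264, 234 and 176 CPM in unligatured CCL19-KI mice on a 60% HFD and 303, 347 and 283 CPM in ligatured ones. The lowest value of all came from the library labelled CCL19-KI 60% HFD replicate 3. *Xdh* had a log2 change of 0.72 in WT and 0.36 in CCL19-KI mice on the ND, 0.25 and 0.33 under a 40% HFD, and 0.22 and 0.48 under a 60% HFD, each with an SE of 0.13. For *Xdh*, the first of these was 0.62 and the last 0.32 without these 2 libraries. In 1 of the 6 pairs, leaving out another single mouse moved the change of *Xdh* by over 1.5 times. *Xdh* among WT mice on a 40% HFD had a log2 change of 0.14 without ligatured replicate 3. None of the 13 tested genes of purine catabolism and salvage were called in the averaged ligature contrast, 5 had a change above 0, and the median log2 change was -0.11.

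*Txnip* (ENSMUSG00000038393; chromosome 3, 96557957 to 96561883, plus strand) was the most abundant member. *Txnip* levels were 723 to 1435 CPM (median 987) in the 18 mice without ligature and 929 to 2479 CPM (median 1463) in the 18 ligatured mice, and the averaged log2 change was 0.56 ± 0.09 (SE), a ratio of 1.48 (0.61 on the log2 scale without the 2 libraries whose *Ccl19* went against their labels). Values of *Txnip* among WT mice on the ND were 861, 1246 and 843 CPM without ligature against 2479, 2122 and 1318 CPM with it. Ligatured WT mice fed an ND held the highest and the most scattered values. With ligature, CCL19-KI mice on the ND reached 1470.2, 1413 and 1695 CPM of *Txnip*, and without it 1034, 996 and 1142 CPM. Ligatured WT mice on a 40% HFD held 1581, 1496 and 1455 CPM of *Txnip* and their unligatured counterparts 723, 1366 and 977 CPM. *Txnip* stood at 1435, 955 and 988 CPM without ligature and at 2061, 1503 and 1873 CPM with it in CCL19-KI mice on a 40% HFD. Ligatured and unligatured mice did not overlap in any of these pairs. *Txnip* measured 939, 988 and 986 CPM in unligatured WT mice on a 60% HFD and 1247, 1365 and 929 CPM in ligatured ones. Values of *Txnip* among CCL19-KI mice on a 60% HFD were 935, 905 and 1101 CPM without ligature against 1168, 1153 and 1313 CPM with it. WT mice under a 60% HFD were the only pair in which *Txnip* overlapped, through 1 ligatured mouse below all 3 unligatured ones. *Txnip* had a log2 change of 0.98 in WT and 0.53 in CCL19-KI mice on the ND, 0.61 and 0.70 under a 40% HFD, and 0.26 and 0.31 under a 60% HFD, each with an SE of 0.23. For *Txnip*, the first of these was 1.16 and the last 0.39 without these 2 libraries. The change of *Txnip* moved by over 1.5 times in 2 of the 6 pairs when another single mouse was left out. *Txnip* among WT mice on a 40% HFD had a log2 change of 0.39 without unligatured replicate 1. *Txnip* among WT mice on a 60% HFD had a log2 change of 0.15 without ligatured replicate 2 and 0.43 without ligatured replicate 3. Gm15441, an antisense transcript across *Txnip*, was at 0.288 to 37.1 CPM without and 0.307 to 5.22 CPM with ligature, and the strand setting of the counting is not given in the sources used here. None of the 11 tested genes of the thioredoxin system and the other alpha-arrestins were called in the averaged ligature contrast, 3 had a change above 0, and the median log2 change was -0.12.

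*H6pd* (ENSMUSG00000028980; chromosome 4, 149979475 to 150009023, minus strand) had its largest ligature changes in CCL19-KI mice on a 60% HFD and on a 40% HFD. *H6pd* levels were 267 to 518 CPM (median 427) in the 18 mice without ligature and 380.0 to 800.1 CPM (median 548) in the 18 ligatured mice, and the averaged log2 change was 0.39 ± 0.07 (SE), a ratio of 1.31 (0.41 on the log2 scale without the 2 libraries whose *Ccl19* went against their labels). With ligature, CCL19-KI mice on a 40% HFD reached 800.1, 643 and 652 CPM of *H6pd*, and without it 518, 467 and 437 CPM. Ligatured CCL19-KI mice on a 60% HFD held 573, 435 and 474 CPM of *H6pd* and their unligatured counterparts 267, 327 and 339 CPM. In both of these pairs, and in WT mice fed an ND, the groups did not overlap. *H6pd* stood at 430.0, 326 and 415 CPM without ligature and at 404, 380.0 and 464 CPM with it in CCL19-KI mice on the ND. The groups of this pair overlapped. *H6pd* had a log2 change of 0.47 in WT and 0.10 in CCL19-KI mice on the ND, 0.33 and 0.55 under a 40% HFD, and 0.22 and 0.66 under a 60% HFD, each with an SE of 0.18. For *H6pd*, the first of these was 0.50 and the last 0.73 without these 2 libraries. Leaving out single mice other than these moved the change of *H6pd* by over 1.5 times in 3 of the 6 pairs. *H6pd* among CCL19-KI mice on the ND had a log2 change of 0.17 without unligatured replicate 1, -0.027 without unligatured replicate 2, 0.15 without unligatured replicate 3, 0.16 without ligatured replicate 2 and 0.017 without ligatured replicate 3. *H6pd* among WT mice on a 40% HFD had a log2 change of 0.15 without unligatured replicate 1. *H6pd* among WT mice on a 60% HFD had a log2 change of 0.13 without unligatured replicate 1, 0.08 without ligatured replicate 1 and 0.36 without ligatured replicate 3. None of the 10 tested genes of the pentose phosphate pathway and NADPH supply of the endoplasmic reticulum were called in the averaged ligature contrast, 7 had a change above 0, and the median log2 change was 0.06.

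*Slc43a1* (ENSMUSG00000027075; chromosome 2, 84838850 to 84863594, plus strand) had the widest spread of ligature changes between pairs. *Slc43a1* levels were 7.56 to 28.7 CPM (median 14.0) in the 18 mice without ligature and 10.9 to 91.0 CPM (median 24.9) in the 18 ligatured mice, and the averaged log2 change was 0.75 ± 0.14 (SE), a ratio of 1.69 (0.73 on the log2 scale without the 2 libraries whose *Ccl19* went against their labels). *Slc43a1* measured 11.1, 21.9 and 19.0 CPM in unligatured WT mice on the ND and 91.0, 65.1 and 39.0 CPM in ligatured ones. Values of *Slc43a1* among CCL19-KI mice on the ND were 15.3, 28.7 and 23.3 CPM without ligature against 39.0, 29.6 and 36.0 CPM with it. The 2 highest values of all 36 mice came from ligatured WT mice fed an ND, and neither of these pairs overlapped. With ligature, WT mice on a 40% HFD reached 16.7, 30.1 and 24.4 CPM of *Slc43a1*, and without it 9.69, 23.9 and 12.0 CPM. Ligatured CCL19-KI mice on a 40% HFD held 25.5, 20.2 and 27.9 CPM of *Slc43a1* and their unligatured counterparts 22.4, 12.6 and 16.4 CPM. Both pairs under a 40% HFD overlapped. *Slc43a1* stood at 8.92, 11.1 and 9.14 CPM without ligature and at 17.8, 19.2 and 15.0 CPM with it in WT mice on a 60% HFD. *Slc43a1* measured 20.0, 11.7 and 7.56 CPM in unligatured CCL19-KI mice on a 60% HFD and 13.6, 15.3 and 10.9 CPM in ligatured ones. Under a 60% HFD, WT mice did not overlap, whereas in CCL19-KI mice the ligatured values lay within the range of the unligatured ones. *Slc43a1* had a log2 change of 1.82 in WT and 0.65 in CCL19-KI mice on the ND, 0.67 and 0.52 under a 40% HFD, and 0.77 and 0.10 under a 60% HFD, each with an SE of 0.33. For *Slc43a1*, the first of these was 2.01 and the last -0.21 without these 2 libraries. In 4 of the 6 pairs, leaving out another single mouse moved the change of *Slc43a1* by over 1.5 times. *Slc43a1* among CCL19-KI mice on the ND had a log2 change of 0.41 without unligatured replicate 1. *Slc43a1* among WT mice on a 40% HFD had a log2 change of 0.42 without unligatured replicate 1 and 1.03 without unligatured replicate 2. *Slc43a1* among CCL19-KI mice on a 40% HFD had a log2 change of 0.33 without unligatured replicate 2, and among CCL19-KI mice on a 60% HFD of 0.44 without unligatured replicate 1, 5.97e-05 without ligatured replicate 2 and 0.23 without ligatured replicate 3. None of the 8 tested genes of amino acid transporters of system L and its relatives were called in the averaged ligature contrast, 6 had a change above 0, and the median log2 change was 0.24.

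*St6galnac5* (ENSMUSG00000039037; chromosome 3, 152817081 to 152982246, minus strand) had the largest averaged change and the lowest level. *St6galnac5* levels were 0.883 to 9.63 CPM (median 3.95) in the 18 mice without ligature and 2.66 to 23.7 CPM (median 10.8) in the 18 ligatured mice, and the averaged log2 change was 1.04 ± 0.19 (SE), a ratio of 2.06 (1.05 on the log2 scale without the 2 libraries whose *Ccl19* went against their labels). Values of *St6galnac5* among WT mice on the ND were 3.64, 9.63 and 8.25 CPM without ligature against 23.7, 19.7 and 8.59 CPM with it. The highest value of all 36 mice was in this ligatured group, but its lowest mouse lay within the range of the unligatured mice. With ligature, CCL19-KI mice on a 40% HFD reached 16.6, 13.5 and 20.2 CPM of *St6galnac5*, and without it 7.47, 4.88 and 4.01 CPM. This was the pair with the largest change, and its groups did not overlap. Ligatured CCL19-KI mice on a 60% HFD held 11.2, 2.66 and 2.83 CPM of *St6galnac5* and their unligatured counterparts 2.39, 1.3 and 0.883 CPM. In this pair 1 ligatured mouse stood far above the other 2. *St6galnac5* stood at 3.96, 3.34 and 2.92 CPM without ligature and at 7.45, 10.4 and 5.37 CPM with it in WT mice on a 60% HFD. The ligatured mice of these 2 pairs lay above the unligatured ones. *St6galnac5* had a log2 change of 1.14 in WT and 0.53 in CCL19-KI mice on the ND, 0.98 and 1.48 under a 40% HFD, and 0.96 and 1.18 under a 60% HFD, each with an SE of 0.46. For *St6galnac5*, the first of these was 1.37 and the last 0.99 without these 2 libraries. The change of *St6galnac5* moved by over 1.5 times in 3 of the 6 pairs when another single mouse was left out. *St6galnac5* among CCL19-KI mice on the ND had a log2 change of 0.20 without unligatured replicate 1, 0.86 without ligatured replicate 2 and 0.28 without ligatured replicate 3. *St6galnac5* among WT mice on a 40% HFD had a log2 change of 0.61 without unligatured replicate 1. *St6galnac5* among CCL19-KI mice on a 60% HFD had a log2 change of 0.61 without ligatured replicate 1. *Pigk* overlaps the span of *St6galnac5* on the other strand. It was at 32.7 to 97.5 CPM without and 42.9 to 87.8 CPM with ligature, and whether the counting used the strand is not given in the sources used here. None of the 16 tested genes of the other sialyltransferases were called in the averaged ligature contrast, 7 had a change above 0, and the median log2 change was -0.03.

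*Scn7a* (ENSMUSG00000034810; chromosome 2, 66673425 to 66784914, minus strand) showed changes of similar size in several pairs. *Scn7a* levels were 88.1 to 369 CPM (median 202) in the 18 mice without ligature and 167 to 494 CPM (median 353) in the 18 ligatured mice, and the averaged log2 change was 0.73 ± 0.13 (SE), a ratio of 1.66 (0.75 on the log2 scale without the 2 libraries whose *Ccl19* went against their labels). *Scn7a* measured 88.1, 265 and 243 CPM in unligatured WT mice on a 40% HFD and 304, 393 and 417 CPM in ligatured ones. The smallest value of all came from unligatured WT 40% HFD replicate 1. Values of *Scn7a* among CCL19-KI mice on the ND were 196, 152 and 175 CPM without ligature against 253, 264 and 359 CPM with it. With ligature, CCL19-KI mice on a 60% HFD reached 261, 167 and 346 CPM of *Scn7a*, and without it 123, 156 and 126 CPM. Neither of these 2 pairs overlapped. Ligatured CCL19-KI mice on a 40% HFD held 479, 311 and 494 CPM of *Scn7a* and their unligatured counterparts 369, 208 and 211 CPM. Here 1 unligatured mouse exceeded the lowest ligatured mouse. *Scn7a* had a log2 change of 0.58 in WT and 0.73 in CCL19-KI mice on the ND, 1.04 and 0.72 under a 40% HFD, and 0.43 and 0.88 under a 60% HFD, each with an SE of 0.32. For *Scn7a*, the first of these was 0.73 and the last 0.83 without these 2 libraries. Leaving out single mice other than these moved the change of *Scn7a* by over 1.5 times in 3 of the 6 pairs. *Scn7a* among WT mice on the ND had a log2 change of 0.34 without unligatured replicate 1. *Scn7a* among WT mice on a 40% HFD had a log2 change of 0.53 without unligatured replicate 1. *Scn7a* among WT mice on a 60% HFD had a log2 change of 0.19 without ligatured replicate 1. None of the 10 tested genes of voltage-gated sodium channels and their beta subunits were called in the averaged ligature contrast, 7 had a change above 0, and the median log2 change was 0.09.

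*Ifngr1* (ENSMUSG00000020009; chromosome 10, 19591949 to 19610229, plus strand), through which interferon gamma signals, was also higher in each pair. *Ifngr1* levels were 47.4 to 156 CPM (median 106) in the 18 mice without ligature and 99.6 to 261 CPM (median 149) in the 18 ligatured mice, and the averaged log2 change was 0.58 ± 0.11 (SE), a ratio of 1.5 (0.58 on the log2 scale without the 2 libraries whose *Ccl19* went against their labels). *Ifngr1* stood at 135, 113 and 122 CPM without ligature and at 221, 218 and 165 CPM with it in WT mice on the ND. *Ifngr1* measured 47.4, 121 and 107 CPM in unligatured WT mice on a 40% HFD and 155, 193 and 189 CPM in ligatured ones. The same unligatured mouse that was lowest for *Scn7a* was lowest here. Values of *Ifngr1* among CCL19-KI mice on a 60% HFD were 100.4, 117 and 113 CPM without ligature against 136, 126 and 141 CPM with it. The groups of these 3 pairs did not overlap, whereas those of the other 3 did. *Ifngr1* had a log2 change of 0.69 in WT and 0.55 in CCL19-KI mice on the ND, 1.06 and 0.51 under a 40% HFD, and 0.40 and 0.29 under a 60% HFD, each with an SE of 0.26. For *Ifngr1*, the first of these was 0.64 and the last 0.30 without these 2 libraries. In 2 of the 6 pairs, leaving out another single mouse moved the change of *Ifngr1* by over 1.5 times. *Ifngr1* among WT mice on a 40% HFD had a log2 change of 0.65 without unligatured replicate 1. *Ifngr1* among CCL19-KI mice on a 40% HFD had a log2 change of 0.20 without ligatured replicate 1. None of the 13 tested genes of interferon gamma receptor signalling were called in the averaged ligature contrast, 9 had a change above 0, and the median log2 change was 0.05.

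*Clec2d* (ENSMUSG00000030157; chromosome 6, 129180615 to 129186534, plus strand) had its highest median level under a 40% HFD, and its ligature change was largest in WT mice fed an ND. *Clec2d* levels were 57.5 to 179 CPM (median 114) in the 18 mice without ligature and 112 to 257 CPM (median 159.7) in the 18 ligatured mice, and the averaged log2 change was 0.47 ± 0.08 (SE), a ratio of 1.39 (0.42 on the log2 scale without the 2 libraries whose *Ccl19* went against their labels). With ligature, WT mice on the ND reached 171, 201 and 173 CPM of *Clec2d*, and without it 113, 98.6 and 89.6 CPM. Ligatured WT mice on a 60% HFD held 197, 171 and 139 CPM of *Clec2d* and their unligatured counterparts 102, 114 and 130.4 CPM. *Clec2d* stood at 102, 106 and 57.5 CPM without ligature and at 133, 139 and 122 CPM with it in CCL19-KI mice on a 60% HFD. Ligatured mice lay above unligatured mice in these 3 pairs. *Clec2d* measured 143, 153 and 179 CPM in unligatured WT mice on a 40% HFD and 157, 257 and 162 CPM in ligatured ones. The highest value of all 36 mice was in this ligatured group, and its other values overlapped with the unligatured mice. *Clec2d* had a log2 change of 0.85 in WT and 0.30 in CCL19-KI mice on the ND, 0.25 and 0.27 under a 40% HFD, and 0.54 and 0.61 under a 60% HFD, each with an SE of 0.20. For *Clec2d*, the first of these was 0.84 and the last 0.33 without these 2 libraries. The change of *Clec2d* moved by over 1.5 times in 1 of the 6 pairs when another single mouse was left out. *Clec2d* among WT mice on a 40% HFD had a log2 change of 0.37 without ligatured replicate 1 and 0.019 without ligatured replicate 2. None of the 4 tested genes of the other Clec2 lectins and their NKR-P1 receptors were called in the averaged ligature contrast, 1 had a change above 0, and the median log2 change was -0.21.

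*Dapk1* (ENSMUSG00000021559; chromosome 13, 60601947 to 60763191, plus strand) varied in its change from pair to pair. *Dapk1* levels were 50.9 to 105 CPM (median 83.1) in the 18 mice without ligature and 91.4 to 134 CPM (median 108) in the 18 ligatured mice, and the averaged log2 change was 0.37 ± 0.06 (SE), a ratio of 1.29 (0.33 on the log2 scale without the 2 libraries whose *Ccl19* went against their labels). Values of *Dapk1* among WT mice on the ND were 74.7, 67.5 and 79.7 CPM without ligature against 134, 118 and 98.8 CPM with it. With ligature, CCL19-KI mice on a 60% HFD reached 110.1, 106 and 98.8 CPM of *Dapk1*, and without it 74.0, 75.2 and 50.9 CPM. The groups were apart in both pairs, and the lowest mouse of all was again the library labelled CCL19-KI 60% HFD replicate 3. Ligatured CCL19-KI mice on the ND held 94.96, 99.8 and 103 CPM of *Dapk1* and their unligatured counterparts 80.4, 97.0 and 101 CPM. *Dapk1* stood at 105, 95.5 and 93.4 CPM without ligature and at 91.4, 109 and 109.6 CPM with it in WT mice on a 40% HFD. In these 2 pairs the groups overlapped and the changes were the smallest of this gene. *Dapk1* had a log2 change of 0.65 in WT and 0.10 in CCL19-KI mice on the ND, 0.07 and 0.46 under a 40% HFD, and 0.26 and 0.67 under a 60% HFD, each with an SE of 0.14. For *Dapk1*, the first of these was 0.58 and the last 0.49 without these 2 libraries. Leaving out single mice other than these moved the change of *Dapk1* by over 1.5 times in 2 of the 6 pairs. *Dapk1* among CCL19-KI mice on the ND had a log2 change of 4.16e-04 without unligatured replicate 1 and 0.16 without unligatured replicate 3. *Dapk1* among WT mice on a 40% HFD had a log2 change of 0.12 without unligatured replicate 1, 0.037 without unligatured replicate 3, 0.16 without ligatured replicate 1, 0.031 without ligatured replicate 2 and 0.026 without ligatured replicate 3. None of the 5 tested genes of related death-associated kinases and their partners were called in the averaged ligature contrast, 1 had a change above 0, and the median log2 change was -0.09.

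*Coro1b* (ENSMUSG00000024835; chromosome 19, 4148619 to 4154035, plus strand) was apart between ligatured and unligatured mice in 4 of 6 pairs. *Coro1b* levels were 111 to 196 CPM (median 142) in the 18 mice without ligature and 119.6 to 239 CPM (median 175) in the 18 ligatured mice, and the averaged log2 change was 0.36 ± 0.06 (SE), a ratio of 1.29 (0.34 on the log2 scale without the 2 libraries whose *Ccl19* went against their labels). *Coro1b* measured 136, 146 and 145 CPM in unligatured WT mice on a 40% HFD and 172, 212 and 225 CPM in ligatured ones. Values of *Coro1b* among CCL19-KI mice on a 60% HFD were 112, 138 and 123 CPM without ligature against 174, 172 and 190.1 CPM with it. Neither pair overlapped, and the 3 unligatured WT mice under a 40% HFD were close to one another. With ligature, CCL19-KI mice on the ND reached 166, 119.6 and 164 CPM of *Coro1b*, and without it 128, 114 and 111 CPM. Ligatured WT mice on a 60% HFD held 173, 175 and 150.4 CPM of *Coro1b* and their unligatured counterparts 151, 146 and 158 CPM. These were the 2 pairs whose groups overlapped. *Coro1b* had a log2 change of 0.31 in WT and 0.33 in CCL19-KI mice on the ND, 0.50 and 0.40 under a 40% HFD, and 0.13 and 0.52 under a 60% HFD, each with an SE of 0.14. For *Coro1b*, the first of these was 0.18 and the last 0.52 without these 2 libraries. In 1 of the 6 pairs, leaving out another single mouse moved the change of *Coro1b* by over 1.5 times. *Coro1b* among WT mice on a 60% HFD had a log2 change of 0.20 without ligatured replicate 3. None of the 16 tested genes of the other coronins and the actin-branching complex were called in the averaged ligature contrast, 7 had a change above 0, and the median log2 change was -0.03. *Ptprcap*, which overlaps the span of *Coro1b* on the same strand, was at 0.965 to 6.45 CPM over all libraries.

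**Figure D2:**
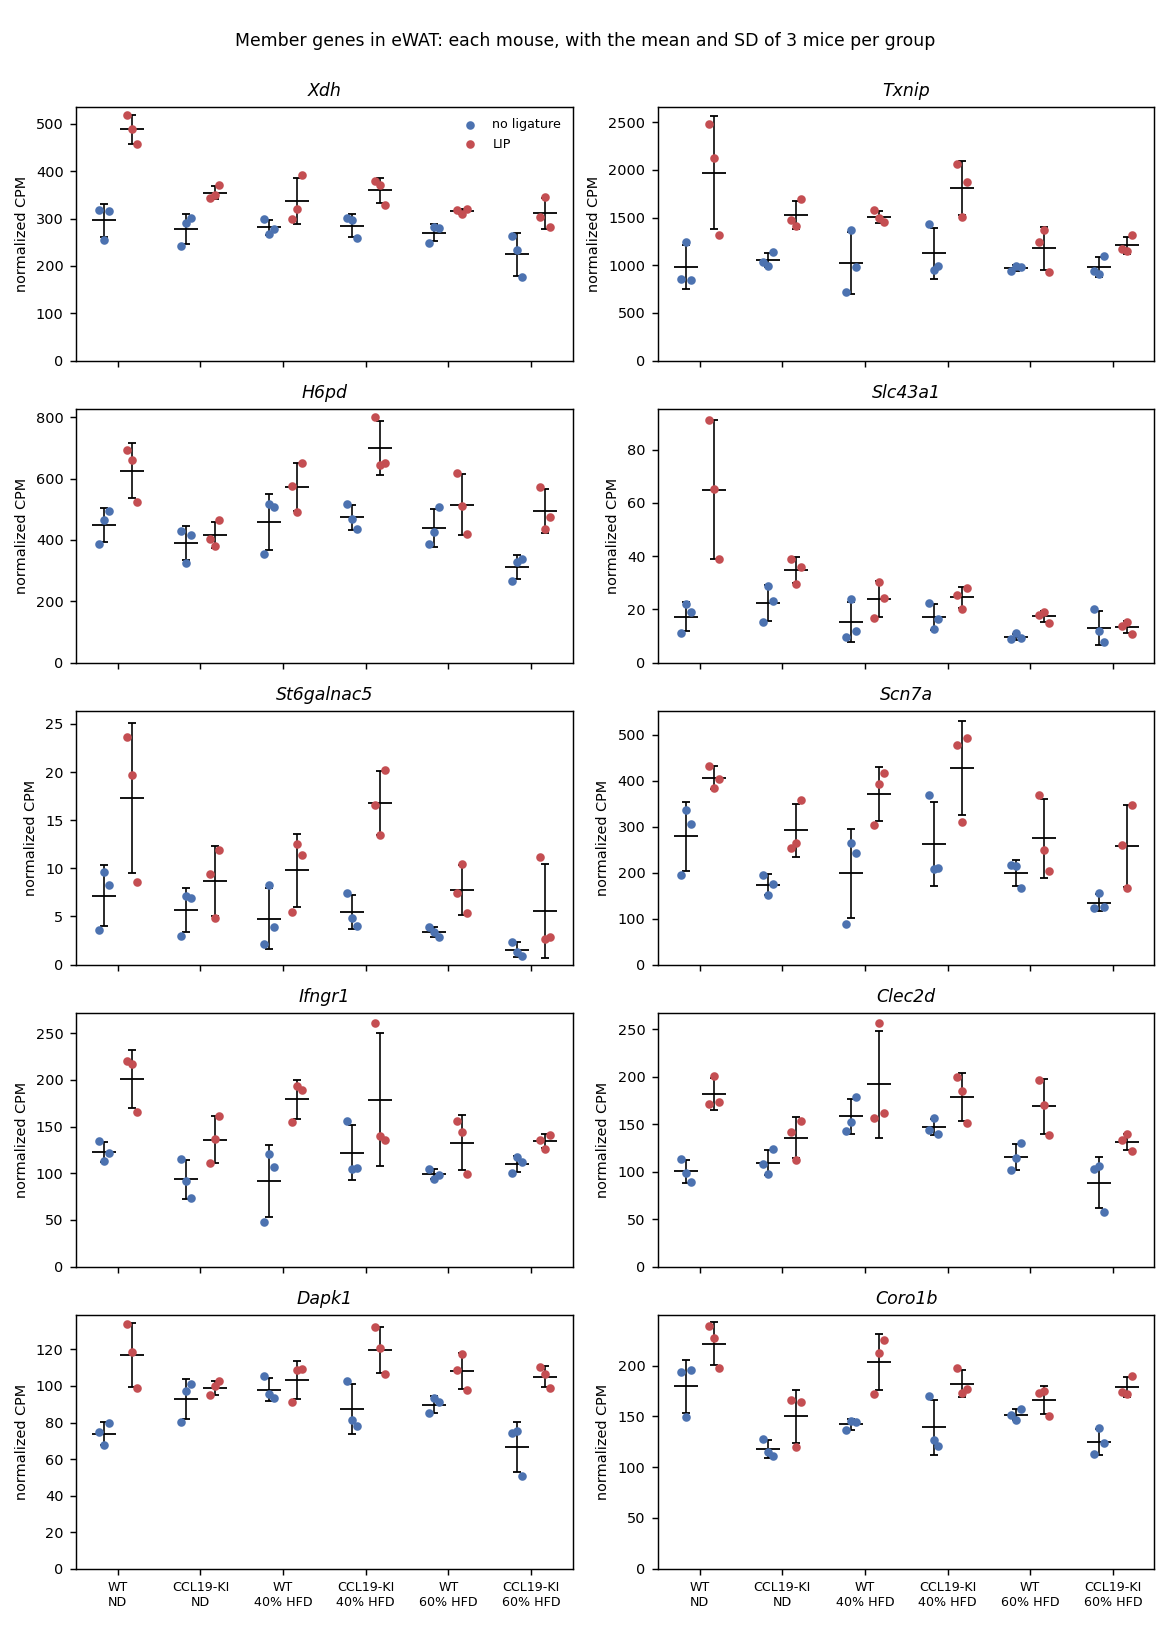
Normalized CPM (vertical axes, from 0) of the 10 members in each mouse, by pair of genotype and diet on the horizontal axes, without ligature (blue) and with LIP (red), with the mean and SD of 3 mice in black. In the *Xdh* panel the 3 ligatured WT mice fed an ND stand at 518, 489.8 and 458 CPM, above every other mouse, and in the *Slc43a1* panel mice of the same group reach 91.0 CPM.

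Lists of glucocorticoid-responsive and circadian clock genes were looked at because H6pd feeds glucocorticoid activation and a D-box stood before its start. 1 of the 14 tested genes of the glucocorticoid-responsive list was called in the averaged ligature contrast, 13 had a change above 0, and the median log2 change was 0.26. The gene called was *Cebpd*, a transcription factor of early adipocyte differentiation that glucocorticoids induce. It was at 15.2 to 51.7 CPM without ligature (mean 38.0) and at 38.5 to 118 CPM with ligature (mean 59.4), and it rose by 0.62 ± 0.12 on the log2 scale (SE, adjusted p = 0.0234, limma, over all genes). Without the 2 libraries whose *Ccl19* went against their labels its change was 0.54 (adjusted p = 0.0167), and with the adipocyte or the red blood cell marker level as a covariate it was 0.61 and 0.55 and was not called (adjusted p = 0.0786 and 0.254, limma). None of the 17 tested genes of the circadian clock list were called in the averaged ligature contrast, 10 had a change above 0, and the median log2 change was 0.02. The median over all genes tested was -0.02, and 44.4% of all genes had a change above 0. In the 12 companion lists together, *Cebpd* was the 1 gene called. Of all genes tested, 0.325% were called in this contrast, so nothing is read from a list with 0 called.

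Levels of cell type markers are given beside the ligature change. No marker of the 14 lists was called in the averaged contrast, and the ranges of the summed levels overlapped between the arms in every list. Adipocyte markers had a change above 0 in 7 of 8 genes, and their summed level was 4517 to 21776 CPM (median 12686) without and 6899 to 25104 CPM (median 16388) with ligature. Macrophage markers were above 0 in 7 of 7 genes, with sums of 761 to 3099.7 CPM (median 1399) and 1309.5 to 2472 CPM (median 1802). Red blood cell markers, the globins among them, were above 0 in 0 of 5 genes, with sums of 329 to 11322 CPM (median 1480.0) and 105 to 4863 CPM (median 507). Hepatocyte markers were above 0 in 6 of 6 genes, with sums of 8.63 to 31647 CPM (median 7041) and 9.45 to 33496 CPM (median 6385), and a marker of the list was at 0 in 3 unligatured libraries. The epididymal epithelium list, with 4 of 6 genes tested, was above 0 in 1 of 4; its sum passed 200 CPM in 6 unligatured and 3 ligatured libraries and a marker was at 0 in 17 of 18 libraries of each arm. Counts above 0 were 5 of 6 for fibroblast and progenitor, 2 of 6 for endothelial, 2 of 6 for smooth muscle and mural, 2 of 6 for mesothelial, 0 of 6 for kidney tubule, 5 of 5 for skeletal muscle, 2 of 4 for Schwann cell, 1 of 6 for B cell and 1 of 6 for T and NK cell markers.

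With the mean level of the adipocyte markers as a covariate, chosen after seeing the data, the averaged ligature changes of the members ran from 0.28 to 0.96, against 0.36 to 1.04 without it. *Ifngr1* went from 0.58 to 0.37, *Scn7a* from 0.73 to 0.49 and *H6pd* from 0.39 to 0.28. *Coro1b* went from 0.36 to 0.28, *Txnip* from 0.56 to 0.48 and *St6galnac5* from 1.04 to 0.96. *Xdh*, *Dapk1*, *Slc43a1* and *Clec2d* were as large as before (0.43, 0.39, 0.77 and 0.47). With the red blood cell markers the range was 0.36 to 1.02, with *Ifngr1* at 0.42, *Scn7a* at 0.57 and *Txnip* at 0.48, against 0.56 for *Txnip* without a covariate. The range was 0.36 to 1.02 with the hepatocyte markers and 0.33 to 1.13 with the epididymal markers. No member had a change below 0 in any of these fits. The members were picked on this change in the same libraries, so nothing is read from that sign. The part of the other marker lists in the result was not tested.

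Whether the members also differed between genotypes and diets was tested, since these contrasts combine the 12 groups in ways that the selection did not use. They share the residual spread with the ligature contrast, and that of *Xdh*, *Dapk1* and *Coro1b* lay in the lowest 4.46 to 7.42% of all genes, so p-values of these members may be too small. Between CCL19-KI and WT mice, 1 of 10 members was called, and 0.459% of all genes were. *Coro1b* was lower in CCL19-KI mice by 0.26 ± 0.06 (SE, adjusted p = 0.0393), with 136 to 239 CPM (median 172, n = 18) in WT and 111 to 197 CPM (median 151, n = 18) in CCL19-KI mice, which overlapped. Without the 2 libraries whose *Ccl19* went against their labels, the difference was -0.28 with adjusted p = 0.00894 by limma, while 1288 genes were called in place of 82. The call depended on single libraries, since limma's adjusted p passed 0.05 when any 1 of 21 libraries was left out and reached at most 0.0819. All 8 adipocyte markers had estimates below 0 in CCL19-KI mice, with 1 called. With the adipocyte marker level as a covariate the difference of *Coro1b* was -0.14 (adjusted p = 0.134 by limma). The adipocyte list includes *Adipoq*, the locus of the knock-in, whose median was lower in CCL19-KI mice. This covariate is therefore not independent of genotype, and the part of adipocyte content in the difference was not tested. It was -0.15 with quantile normalization (adjusted p = 0.415 by limma) and -0.23 by edgeR (adjusted p = 0.0787), neither of them called. *Xdh* (-0.12), *H6pd* (-0.16) and *Clec2d* (-0.21) had estimates below 0 that did not pass the adjustment, with adjusted p between 0.185 and 0.25. These were, without the 2 libraries, -0.11, -0.17 and -0.16 and were not called either. *Txnip* had an estimate of 0.05 with a 95% interval of -0.13 to 0.23 (0.06 without the 2 libraries), and *Slc43a1* had -0.04, which was 0.05 without them.

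Under a 60% HFD, 3 of 10 members were called relative to the ND, and each of them fell. Of all 17852 genes tested, 18.6% were called in either direction, 1499 of them lower and 1816 higher. *Slc43a1* was at 11.1 to 91.0 CPM (median 29.2, n = 12) in mice fed an ND, 9.69 to 30.1 CPM (median 21.3, n = 12) under a 40% HFD and 7.56 to 20.0 CPM (median 12.6, n = 12) under a 60% HFD. Its log2 difference from the ND was -1.16 ± 0.17 (SE, adjusted p = 0.000103) under a 60% HFD and -0.61 ± 0.17 (SE, adjusted p = 0.0239) under a 40% HFD. *St6galnac5* was at 3.02 to 23.7 CPM (median 8.42, n = 12), 2.10 to 20.2 CPM (median 7.86, n = 12) and 0.883 to 11.2 CPM (median 3.13, n = 12) on the 3 diets in the same order. It fell by 0.98 ± 0.23 under a 60% HFD (SE, adjusted p = 0.00578), and the difference under a 40% HFD was -0.09 ± 0.23 (SE, adjusted p = 0.828). *Xdh* was at 243 to 518 CPM (median 331, n = 12), 258 to 392 CPM (median 301, n = 12) and 176 to 347 CPM (median 283, n = 12), with a difference of -0.32 ± 0.07 (SE, adjusted p = 0.00259) under a 60% HFD and of -0.14 ± 0.07 (SE, adjusted p = 0.185) under a 40% HFD. The ranges of the diets overlapped for each of these genes.

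Under a 40% HFD, 2 of 10 members were called, 9.21% of all genes were, and the directions differed. *Slc43a1* fell as given above. *Clec2d* rose by 0.38 ± 0.10 (SE, adjusted p = 0.0191), from 89.6 to 201 CPM (median 118, n = 12) to 140.2 to 257 CPM (median 157, n = 12), and was at 57.5 to 197 CPM (median 126, n = 12) under a 60% HFD, where the difference from the ND was -0.08 ± 0.10 (SE, adjusted p = 0.615). With quantile normalization the 40% HFD difference of *Clec2d* was 0.22 and was not called (adjusted p = 0.229 by limma). Both diets were compared with the same mice fed an ND, so the 2 sets of differences are not independent. *H6pd* had an estimate of 0.23 ± 0.09 (SE, adjusted p = 0.0965) and was not called (0.24 without the 2 libraries). *Txnip* and *Scn7a* had differences of -0.29 ± 0.11 (SE, adjusted p = 0.0722) and -0.41 ± 0.16 (SE, adjusted p = 0.0719) under a 60% HFD, and of -0.26 and -0.36 without the 2 libraries. Without the 2 libraries whose *Ccl19* went against their labels, the same members were called, with adjusted p of 0.000630 for *Slc43a1*, 0.0208 for *St6galnac5* and 0.00264 for *Xdh* under a 60% HFD, and of 0.0137 for *Clec2d* and 0.0338 for *Slc43a1* under a 40% HFD by limma.

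Hepatocyte markers moved with the diets. All 6 were called higher under either HFD, and their sum was 8.63 to 19572 CPM (median 713) in mice fed an ND, 361 to 33496 CPM (median 12707) under a 40% HFD and 9.77 to 31647 CPM (median 11187) under a 60% HFD. With their level as a covariate the 40% HFD difference was 0.29 for *Clec2d* (adjusted p = 0.280) and -0.74 for *Slc43a1* (adjusted p = 0.0818), and with the epididymal marker level it was 0.32 (adjusted p = 0.0885) and -0.52 (adjusted p = 0.104). The 60% HFD differences of *Slc43a1*, *St6galnac5* and *Xdh* with the hepatocyte covariate were -1.26, -1.11 and -0.43, each still called. Mesothelial markers had differences below 0 in 6 of 6 genes under a 60% HFD, with 1 called, and skeletal muscle markers in 5 of 5 under a 40% HFD, with 3 called. Under a 60% HFD, 1 of 5 skeletal muscle markers was called lower. Endothelial markers were called higher in 2 of 6 genes under each HFD, and Schwann cell markers lower in 1 of 4 under a 40% HFD and 2 of 4 under a 60% HFD. Further calls under a 60% HFD were 2 higher and 1 lower of 7 macrophage markers, 2 higher of 6 kidney tubule markers, 1 higher of 6 B cell markers, and 1 higher and 1 lower of 8 adipocyte markers. With the adipocyte marker level as a covariate, 5 members were called under a 60% HFD in place of 3, and the part of the other lists of this paragraph beyond the hepatocyte and epididymal ones was not tested.

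**Figure D3:**
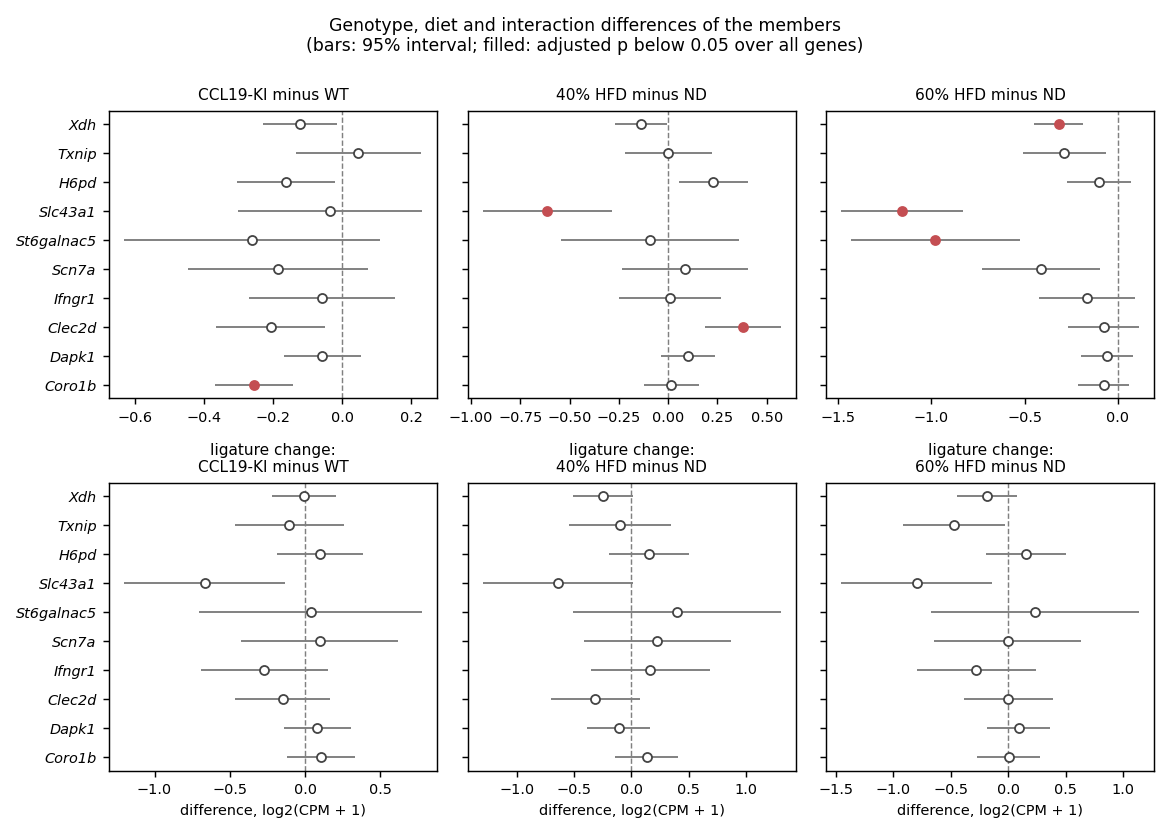
Differences of the 10 members (rows) on the log2(CPM + 1) scale (horizontal axes) for genotype, for each HFD against the ND, and for the difference of the ligature change between genotypes and diets, with 95% intervals; filled red points have an adjusted p below 0.05 over all genes. Filled points are *Coro1b* for genotype, *Slc43a1* and *Clec2d* under a 40% HFD and *Slc43a1*, *St6galnac5* and *Xdh* under a 60% HFD, and the lower row holds none.

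Whether the ligature change itself depended on genotype or diet was tested as an interaction. For genotype, 0 of 10 members were called, and 0.0056% of all genes, that is the single gene *Atp2a1*, were (limma, adjusted p below 0.05; 1 member had an unadjusted p below 0.05). For a 40% HFD against the ND, 0 of 10 were called, with 0.0056% of all genes, the single gene *Adamts7*, and 0 members below an unadjusted p of 0.05. For a 60% HFD against the ND, 0 of 10 were called, with 0% of all genes, and 2 members below an unadjusted p of 0.05. Over all genes, 1137 had a higher and 1422 a lower estimate with an unadjusted p below 0.05 for the 60% HFD. The edgeR quasi-likelihood test on whole reads called 0 members in these 3 contrasts, and 1, 2 and 0 genes of the whole table. *Atp2a1* and *Adamts7* are named here after their values were seen. The largest estimates were those of *Slc43a1*. Its ligature change was smaller by 0.67 in CCL19-KI than in WT mice (95% interval of the difference -1.20 to -0.13, adjusted p = 0.4). The difference was -0.64 for a 40% HFD (95% interval -1.3 to 0.01, adjusted p = 0.560) and -0.80 for a 60% HFD (95% interval -1.45 to -0.14, adjusted p = 0.280). *Txnip* had an estimate of -0.47 for a 60% HFD (95% interval -0.91 to -0.02, adjusted p = 0.345). For *Xdh*, the interval of the difference between genotypes was -0.22 to 0.21, and for *St6galnac5*, with few reads, it was -0.70 to 0.78. With the 2 libraries left out, the estimates of *Slc43a1* were -0.83 for genotype (adjusted p = 0.115), -0.73 for a 40% HFD (adjusted p = 0.260) and -1.05 for a 60% HFD (adjusted p = 0.0639), and that of *Txnip* for a 60% HFD was -0.52 (adjusted p = 0.181). The genotype estimates of *Xdh* and *St6galnac5* were then -0.03 and -0.10. Without the 2 libraries whose *Ccl19* went against their labels, 0 members were called in each of the 3 interactions, while 75, 105 and 927 genes of the whole table were.

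How the members varied together was described by Pearson's r of their log2 values over 36 libraries, which share depth and tissue composition. Over all libraries, r of the 45 pairs of members ran from 0.42 to 0.82 (median 0.66), to which the shared ligature change of the members contributes by their choice. After the group means were taken off, it ran from -0.20 to 0.79 (median 0.33), with 41 pairs above 0. *Xdh* and *Dapk1* (0.79) and *Slc43a1* and *St6galnac5* (0.79) had the highest values within groups, followed by *Ifngr1* and *Scn7a* (0.70). *Xdh* with *Scn7a* (-0.20) and with *Txnip* (-0.18) had the lowest. Over the 34 libraries without the 2 whose *Ccl19* went against their labels, r within groups ran from -0.23 to 0.78 (median 0.37), with 0.68 for *Xdh* and *Dapk1*, 0.78 for *Slc43a1* and *St6galnac5*, 0.73 for *Ifngr1* and *Scn7a* and 0.04 for *Xdh* and *Txnip*.

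**Figure D4:**
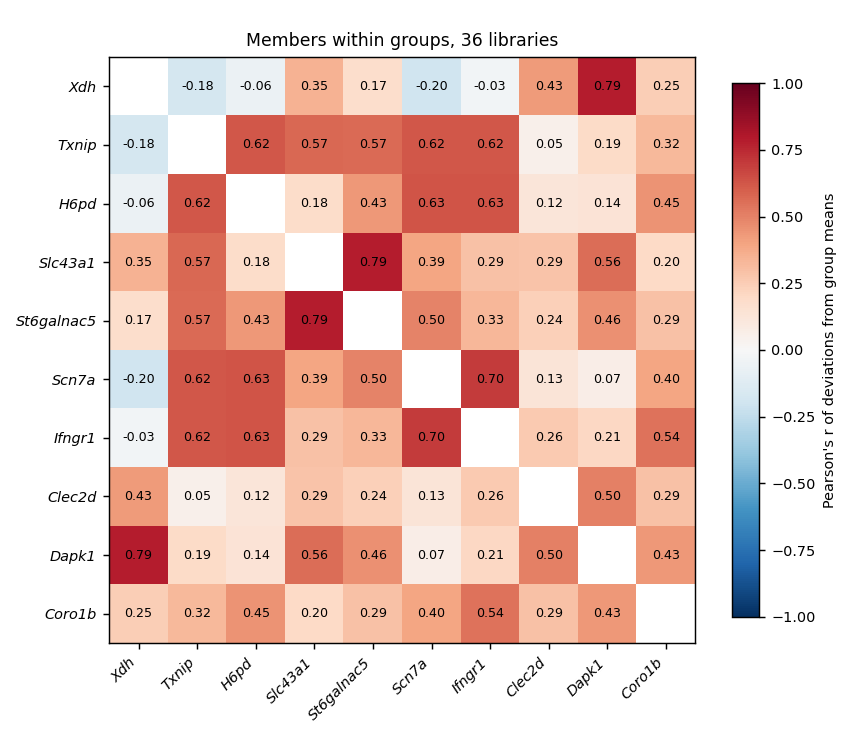
Pearson's r between members (rows and columns) of deviations from the 12 group means of log2(CPM + 1) over 36 libraries, from blue (-1) to red (1). *Xdh* and *Dapk1* stand out with 0.79 and *Slc43a1* and *St6galnac5* with 0.79.

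Outside the members, the genes whose log2 level followed the mean standardized level of the 10 members most closely over the 36 libraries were *Sav1* (r = 0.85), *Sik2* (0.84), *Lamb1* (0.84), *Slc1a3* (0.84) and *Klhl7* (0.83). Over the 34 libraries r was 0.84, 0.85, 0.81, 0.84 and 0.80. Their averaged log2 ligature changes over all 36 were 0.38, 0.63, 0.68, 0.91 and 0.31 in the same order. The members themselves were selected on the ligature change, so a gene that is higher with ligature comes forward here by construction.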

How the data were processed

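Libraries were prepared from eWAT RNA with rRNA depletion and a directional kit. The authors trimmed reads with Trimmomatic 0.38, counted them per gene with RSEM 1.3.0 and Bowtie2, and deposited counts normalized with edgeR, here treated as a signal in CPM units. All values were whole multiples of 1 read to within 0.01 of a read, so read numbers were recovered for each library. The methods name mm10 and the submitters' processing notes GRCm39, so positions are those of GRCm38 (GENCODE M21), matched by gene identifier, and describe the gene rather than the alignment. Whether counting used the strand is not given in the sources used here.

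Groups followed the sample labels. The 12 group means were fitted to log2(CPM + 1) over 36 libraries with limma 3.58.1 (R 4.3.3, mean-variance trend, 24 residual degrees of freedom) for the 17852 genes with at least 1 CPM in at least 3 libraries, and p-values were adjusted by Benjamini-Hochberg over all of these genes, with calls below 0.05. The contrasts were ligature, genotype and each HFD against the ND, each averaged over the other factors, and the 3 interactions. Fold ratios are on the log2(CPM + 1) scale and understate changes of low genes. The steps were tested on simulated reads with known ligature changes and a common spread. The simulation held no differences in tissue composition between libraries, so it does not show how calls behave in these data.

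The members and all gene lists were chosen with earlier results of these data known. The text names the members, *Ccl19* and *Adipoq* as checks, the companion genes that were called, the 5 genes most correlated with the members and the neighbours of the members in the ligature order. Outside this rule, Gm15441, *Ptprcap* and *Pigk* are named because they overlap members. Gm48582 and Gm48583 overlap *Dapk1* and CT025731.2 overlaps *Xdh*, on the same strand, and *Rps6kb2* overlaps *Coro1b* on the other strand. They were at no more than 7.11, 0.432, 1.22 and 21.5 CPM in any library, and their part in the member values was not tested. Gm2564 and *Hist1h4m* are named because they also check the genotype. *Atp2a1* and *Adamts7* are named because each was the single gene called in an interaction. All of these were chosen after their values were seen.

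The labels do not say whether mice with equal replicate numbers belong together, and the numbers were not used as pairs. Same-numbered ligatured and unligatured mice had correlations of their deviations from group means of -0.51 to 0.67 (median 0.09, 18 correlations, 9 over 0.1). These values do not settle the question. The alternatives were pseudocounts of 0.1 and 5, other filters, other scalings, sample quality weights, the replicate block, edgeR 4.0.16 and leaving out each library. Covariates from adipocyte, hepatocyte, epididymal and red blood cell markers, and the fit without both libraries whose *Ccl19* went against their labels, were chosen after seeing the data.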

Additional observations from a re-analysis of the deposited data

Results flagged for a closer look

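Outside the members, 1 gene differed in its ligature change between the genotypes and 1 between the diets by the interaction test over all genes, and both are named after their values were seen. *Atp2a1*, the calcium pump of fast skeletal muscle, had a ligature change higher by 2.86 ± 0.48 on the log2 scale in CCL19-KI than in WT mice (SE, adjusted p = 0.0445, limma). Its change was -1.91, 0.17 and -0.18 in WT and 3.73, 0.61 and 2.33 in CCL19-KI mice on the ND, the 40% HFD and the 60% HFD, at a mean of 3.09 CPM and a maximum of 52.0 CPM. Without the 2 libraries whose *Ccl19* went against their labels, the difference was 2.88 (adjusted p = 0.0341, limma). In this interaction 4 of 5 skeletal muscle markers had an estimate above 0, with a median of 1.97 and 0 called. Ligatured CCL19-KI ND replicate 1 held the highest value of *Atp2a1*, 52.0 CPM against at most 17.8 CPM in the other libraries, and the highest sum of these markers, 451 CPM against 16.5 to 120.3 CPM. The part of muscle RNA in this result was not tested. No gene was called in this interaction in 27 of 36 fits that left out 1 library.

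*Adamts7*, a secreted metalloprotease, had a ligature change that differed by -1.37 ± 0.23 on the log2 scale between the 40% HFD and the ND (SE, adjusted p = 0.0339, limma). The change was 1.01 for WT and 0.49 for CCL19-KI mice on the ND, -0.64 and -0.60 under a 40% HFD, and -0.12 and -0.02 under a 60% HFD, at a mean of 5.81 CPM and a maximum of 10.7 CPM. Without the same 2 libraries it was -1.27 (adjusted p = 0.0248, limma). In the same interaction 0 of 6 mesothelial markers had an estimate above 0 (median -1.44), 0 of 5 skeletal muscle markers (median -0.74) and 1 of 6 fibroblast and progenitor markers (median -0.48), with 0 called, and their part in this result was not tested. No gene was called in this interaction in 17 of 36 fits that left out 1 library.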

How the results depend on the processing

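The averaged ligature change of each member stayed above 0 under all alternatives run. This change picked the members in the same libraries, so its sign was largely set by the choice and nothing is read from it. The number of genes called for it, 58, was 98 with quantile normalization, 95 with edgeR and 2258 with sample quality weights, a fit for which limma warned that its tolerance was not reached; it was 17, 293 and 1 with the adipocyte, hepatocyte and red blood cell marker level as a covariate. Leaving out 1 library gave 22 (without ligatured CCL19-KI 40% HFD replicate 1) to 272 genes (without WT 40% HFD replicate 2). For genotype, the 1 member called became 0 with quantile normalization, edgeR or the adipocyte covariate and 2 with quality weights, and 0 to 1 without 1 library. For the 40% HFD, the 2 members called became 4 with quality weights and 0 with the hepatocyte or epididymal covariate, and 1 to 3 without 1 library (1 without CCL19-KI 40% HFD replicate 2, where *Slc43a1* had an adjusted p of 0.0528 by limma). For the 60% HFD, 3 members became 5 with quantile normalization, quality weights or the adipocyte covariate, and 3 to 4 without 1 library. With quality weights, 2 members were called in the interaction with the 60% HFD, *Slc43a1* among them; leaving out 1 library gave 0 in each interaction. The single companion gene called became 28 with quality weights and 0 with the adipocyte or red blood cell covariate, and 1 to 2 without 1 library. Of the 60 changes by pair, 25 moved by over 1.5 times without 1 library, as given with each member, and 2 turned below 0. Of these, *H6pd* in CCL19-KI mice on the ND ranged from -0.027 (without CCL19-KI ND replicate 2) to 0.17 and *Slc43a1* in CCL19-KI mice on the 60% HFD from -0.21 (without replicate 3) to 0.44. Of all genes, the 82 called for genotype became 41 with quantile normalization, 292 and 200 with the adipocyte and red blood cell covariates and 1288 without both libraries whose *Ccl19* went against their labels. The 1645 called for the 40% HFD became 365 and 615 with the hepatocyte and epididymal covariates, and the 3315 for the 60% HFD became 1860 with the hepatocyte covariate. Quality weights gave 3795, 4797 and 7846 for these 3 contrasts. The cause of these shifts was not tested.

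With the replicate number as a block, 47 genes were called for ligature, 106 for genotype, 1569 for the 40% HFD and 3304 for the 60% HFD. The labels do not say whether the numbers pair the mice. *St6galnac5*, at 18 to 388 reads per library, is the member whose precision the depth limits most.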
